A study of Mus musculus with 40 samples.

Results

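The response of wild-type mammary tumours to doxorubicin was described from 12 of the 40 tumours of the series, chosen by their titles: 6 from mice given doxorubicin and 6 from untreated mice. All 40 arose spontaneously in MMTV-Wnt1 mice, in which the promoter of the mouse mammary tumour virus, active mainly in mammary epithelium, drives the ligand Wnt1. Treated mice received doxorubicin at 4 mg/kg by intraperitoneal injection on each of 5 consecutive days and their tumours were taken 24 h after the last injection, whereas the other 6 tumours received no drug. Both groups are wild-type for Trp53 and Cdkn1a, and both carry the transgene. A tumour whose title number carries the suffix la (m1475la) and the tumour with the same title number and no suffix were averaged as 1 mouse (m1475), which left 5 treated mice (m1127, m1188, m1475, m824 and m978) and 6 untreated mice (m1178, m1198, m620, m713, m996 and m998). The other 28 tumours lack Trp53 or Cdkn1a and serve only in the comparison of responses. Apart from the title numbers, the labels do not say that tumours came from separate animals, and ages are not stated there.

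Doxorubicin intercalates into DNA and traps topoisomerase II on it, which leaves double-strand breaks. Damage signalling stabilises p53, a transcription factor that switches on genes for cell cycle arrest, cell death, DNA repair and its own inhibitors. Mammary tumours of this line that keep p53 are known to stop dividing after doxorubicin and to take on features of senescence, a lasting arrest with secretion of cytokines and matrix enzymes.

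Short noncoding RNA filled 83.16% to 89.05% of the abundance in treated tumours and 77.36% to 89.21% in untreated tumours, and nuclear protein-coding genes 7.72% to 10.73% and 8.93% to 10.54%. Levels below are therefore transcript abundances (TPM) rescaled so that nuclear protein-coding genes sum to 1000000 in each tumour. Because TPM carry no depth, the sequencing depth is unknown and no counting interval can be given. Values per mouse follow the order of treated mice given above. For the 6 untreated mice the range and median are given. Tumour m1475la stood apart from the unsuffixed tumour of m1475 in a summed list of 14 skeletal muscle genes (3124 against 119.8 TPM) and a summed red blood cell list (603.4 against 7.058 TPM). These 2 tumours differed by at least 2-fold at 2378 genes, within the 1078 to 2676 genes of the other 14 pairs of treated tumours. Mammary epithelial markers were present in every mouse: the 15 luminal markers summed to 5148 to 9201 TPM in treated and 5000 to 8000 TPM in untreated mice. On the first principal component (22.13% of the variance) m1188 lay farthest from the untreated mice.

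Of 18470 genes tested, 908 changed (4.92%) at an adjusted p under 0.05 (limma): 693 rose with doxorubicin (3.75%) and 215 fell (1.16%). The change was at least 2-fold for 221 of the genes that rose and 80 of those that fell. Every treated mouse lay above every untreated mouse at 699 genes (3.78% of those tested) and below at 306 (1.66%), which includes 530 of the genes that rose and 157 of those that fell. The median log2 fold change of all genes was 0.02. Without untreated m1198, 373 genes rose and 71 fell. Counts of rises also shrank by over 1.5 times without untreated m713 (412) or m996 (446) or treated m1127 (387) or m1475 (414). Falls shrank likewise without untreated m713 (84), m996 (138) or m998 (137) or treated m1127 (102), m1188 (124) or m1475 (93).

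**Figure D1:**
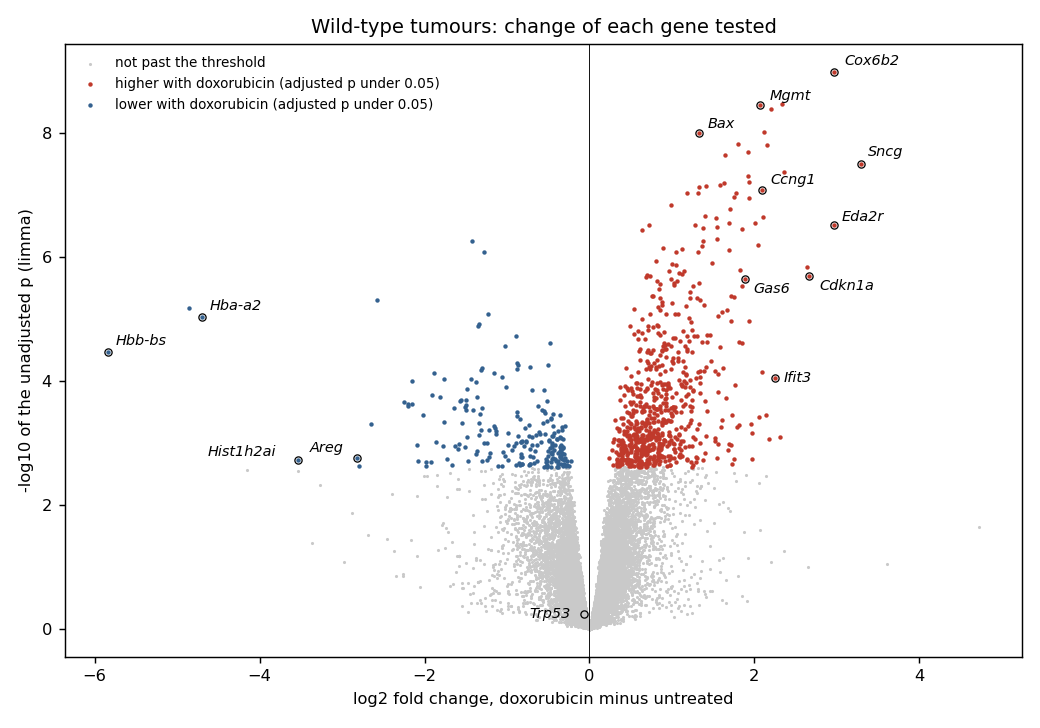
Log2 fold change of each of the 18470 genes tested (x axis, treated minus untreated wild-type tumours) against minus log10 of its p from limma (y axis), with 693 genes that rose and 215 that fell in colour. Sncg and Eda2r lie farthest to the right of the labelled genes and Hbb-bs farthest to the left.

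Cdkn1a encodes p21, the cyclin-dependent kinase inhibitor through which p53 halts the cell cycle (ENSMUSG00000023067, chromosome 17, 29090976 to 29100727 in GRCm38). Its level was 213, 241, 225, 172 and 201 TPM in treated mice, against 12.1 to 51.1 TPM (median 37.2) in untreated mice. No treated mouse overlapped the untreated ones, and the log2 fold change was 2.66 ± 0.30 (SE, n = 5 and 6; adjusted p = 6.14e-04). Trp53 itself, which encodes p53, averaged 88.1 ± 11.9 TPM in treated and 92.4 ± 12.6 TPM in untreated mice (SD), a log2 difference of -0.07 ± 0.12 (adjusted p = 0.805, limma). Wnt1 averaged 111 ± 15.9 and 103 ± 11.6 TPM in treated and untreated mice, a log2 difference of 0.11 ± 0.11 (adjusted p = 0.639, limma). The Wnt1 reads include any from the transgene.

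Over 6 lists of p53 targets, 45 of 79 tested genes rose, against 3.75% of all genes, and 1 fell. At 44 of the 79 every treated mouse lay above every untreated mouse, against 3.78% of all genes. The filter (at least 1 TPM in at least 5 mice) fixed this in advance for members such as Gdf15 and Trp53cor1, which passed it only through treated mice. The median log2 fold change of the 79 was 0.64, against 0.02 over all genes. Between 34 and 48 rose under the other settings of the analysis.

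Of the feedback regulators of p53, 6 of 9 rose (3.75% of all genes did). Mdm2, the ubiquitin ligase that degrades p53, averaged 157 ± 14.9 TPM in treated and 68.9 ± 9.75 TPM in untreated mice, with a log2 fold change of 1.18 ± 0.10 (adjusted p = 7.95e-05, limma). Its partner Mdm4 rose by 0.64 on the log2 scale, and the phosphatase gene Ppm1d by 0.36. Ccng1, the cyclin G gene that recruits a phosphatase to Mdm2, was at 401, 391, 491, 315 and 274 TPM in treated mice, against 69.7 to 128 TPM (median 82.1) in untreated mice, without overlap. Trp53inp1, which promotes phosphorylation of p53, rose by 1.92 ± 0.16. In a fit of all 6 groups of the series, 3 of these 9 genes passed, and Mdm2 (adjusted p = 0.0798) and Mdm4 (adjusted p = 0.0571) did not.

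Genes of cell cycle arrest rose in 7 of 11 cases (3.75% of all genes did). Beside Cdkn1a these included Psrc1 (log2 fold change 1.85 ± 0.18), whose product binds spindle microtubules, and Gtse1 (1.38 ± 0.14), whose product shuttles p53 out of the nucleus in G2. Btg2, an antiproliferative gene, rose by 1.48 ± 0.17. Rprm, the gene of the G2 arrest protein reprimo, rose by 0.88. Gadd45a and Sfn, classical arrest genes of the same pathway, did not pass the test, with log2 differences of 0.08 and 0.11.

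Of 15 targets in cell death, 10 rose (3.75% of all genes did). Eda2r, a death-inducing receptor of the tumour necrosis factor family, was at 63.2, 53.3, 66.0, 47.9 and 43.5 TPM in treated mice, against 3.30 to 15.3 TPM (median 5.51) in untreated mice, and had a log2 fold change of 2.97 ± 0.29 (adjusted p = 1.70e-04, limma). Bax, which permeabilises the mitochondrial outer membrane, was at 204, 186, 217, 175 and 187 TPM in treated mice, against 63.5 to 88.3 TPM in untreated mice. Neither gene overlapped between the groups, and Bax rose by 1.33 ± 0.10. The initiators of the same pathway Bbc3 (PUMA) and Pmaip1 (NOXA) rose by 1.70 and 1.56, the death receptor Fas by 1.48 and the apoptosome component Apaf1 by 0.83. Zmat3, an RNA-binding protein gene, rose by 1.804 ± 0.13, the nuclease gene Aen by 1.64 ± 0.13 and Ei24 by 0.99 ± 0.09. Perp, Pidd1, Siva1, Tnfrsf18 and Trp53i11 did not pass, with log2 differences between -0.06 and 0.54.

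Among 18 targets in metabolism, autophagy and redox, 7 rose (3.75% of all genes did). The count was 4 when treated m1127 was left out or on TPM as deposited. Cpt1c, a carnitine palmitoyltransferase gene, rose by 2.12 ± 0.15, the epoxide hydrolase gene Ephx1 by 2.04 ± 0.21, and Sesn2, an inhibitor of mTORC1 signalling, by 1.59 ± 0.14. Gdf15, which encodes a stress cytokine, was at 5.50, 2.59, 11.1, 4.00 and 4.01 TPM in treated mice, against 0.224 to 0.784 TPM in untreated mice, a log2 fold change of 1.94 ± 0.27 that understates the change because 1 TPM was added to low values. Gdf15 passed the filter only through the treated mice, so a lack of overlap was fixed in advance. Sesn1 and Fdxr did not pass (-0.03 and 0.14). Of 9 repair targets, 3 rose and 1 fell (3.75% and 1.16% of all genes). Mgmt, which removes alkyl groups from guanine, was at 75.8, 60.0, 75.9, 68.0 and 56.3 TPM in treated mice, against 12.8 to 21.1 TPM in untreated mice, without overlap, and rose by 2.07 ± 0.14 (adjusted p = 1.90e-05, limma). The translesion polymerase gene Polk rose by 1.397 ± 0.13 and the nuclease gene Ercc5 by 0.80 ± 0.09, while the recombination gene Rad51c fell by 0.58 on the log2 scale. That fall was lost without untreated m1178, m1198, m713 or m996 or treated m1127, m1188 or m1475 (adjusted p = 0.0524 to 0.0701). Ddb2 and Xpc, which recognise damage in nucleotide excision repair, had log2 differences of 0.07 and 0.19 and did not pass.

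The remaining mouse targets rose in 12 of 17 cases (3.75% of all genes did). They included the sugar reductase gene Dcxr (1.93 ± 0.16), the thiamine transporter gene Slc19a2 (1.78 ± 0.16) and the phosphatase gene Ptp4a3 (1.94 ± 0.17). Trp53cor1, the long noncoding RNA lincRNA-p21 transcribed next to Cdkn1a (chromosome 17, 29057430 to 29079179), was at 5.04, 6.99, 5.19, 4.50 and 5.03 TPM in treated mice, against 0.0949 to 0.580 TPM in untreated mice, and rose by 2.20 ± 0.15. No untreated mouse reached 1 TPM. This RNA therefore passed the filter (at least 1 TPM in at least 5 mice) only through the 5 treated mice. That filter fixed in advance that all treated mice lay above all untreated ones.

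**Figure D2:**
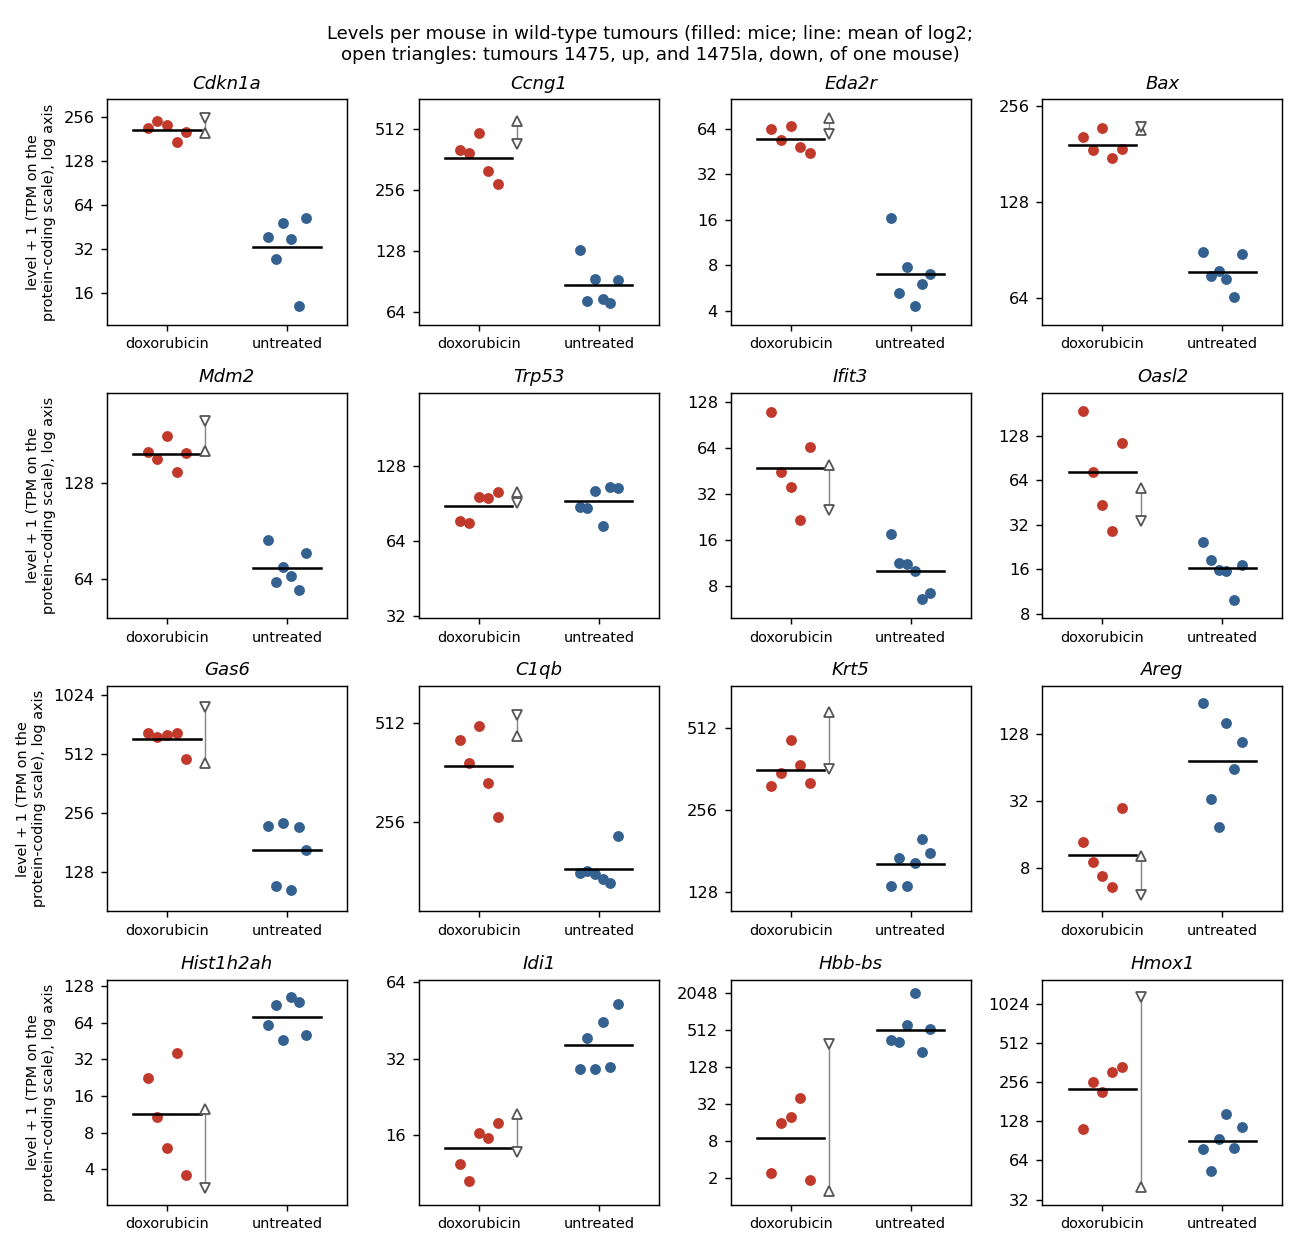
Level of 16 genes in each mouse (y axes, TPM on the protein-coding scale plus 1, log axis), with 5 treated mice left of 6 untreated mice, a line at the mean of log2 values and open triangles for the unsuffixed tumour (up) and tumour m1475la (down) of m1475. Cdkn1a, Eda2r and Bax are higher in every treated mouse and Hist1h2ah and Hbb-bs are lower, while the triangles of Hbb-bs stand far apart.

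Promoters were searched on both strands for a p53 response element, given here as 2 decamers with 0 or 1 base between them, the C and G of each core intact and at most 2 other departures from the consensus. The window ran from 250 bases before to 50 bases after the gene start in RefSeq (GRCm38.p6). A gene was counted if any of its windows held a match. A match was found for 5 of 38 called members of the p53 lists with a window (13.2%). It was found for 1.97% of the 508 genes that rose and have a window, and 0.913% of the 11825 tested genes with a window. Of single windows, 0.682% of all 32851 held a match. The 5 were Bax, Ccng1, Cdkn1a, Gtse1 and Zfp365, and 4 of them follow, 5′ to 3′ on the strand of the gene, with matches in capitals. A match is a description of these letters, not a measured site.
Bax (chr7:45466849-45467148, minus strand): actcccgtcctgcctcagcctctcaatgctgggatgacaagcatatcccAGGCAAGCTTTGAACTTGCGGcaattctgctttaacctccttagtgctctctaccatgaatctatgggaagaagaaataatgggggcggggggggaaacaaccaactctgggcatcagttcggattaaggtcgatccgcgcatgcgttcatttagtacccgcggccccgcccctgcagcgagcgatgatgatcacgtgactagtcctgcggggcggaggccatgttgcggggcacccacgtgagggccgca
Ccng1 (chr11:40755237-40755536, minus strand): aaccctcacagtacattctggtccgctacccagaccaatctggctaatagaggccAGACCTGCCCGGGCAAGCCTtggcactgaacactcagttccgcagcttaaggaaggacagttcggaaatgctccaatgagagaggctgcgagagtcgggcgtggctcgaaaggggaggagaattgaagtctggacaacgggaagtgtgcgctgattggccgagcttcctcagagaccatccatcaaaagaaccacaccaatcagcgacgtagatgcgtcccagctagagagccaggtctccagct
Gtse1 (chr15:85859696-85859995, plus strand): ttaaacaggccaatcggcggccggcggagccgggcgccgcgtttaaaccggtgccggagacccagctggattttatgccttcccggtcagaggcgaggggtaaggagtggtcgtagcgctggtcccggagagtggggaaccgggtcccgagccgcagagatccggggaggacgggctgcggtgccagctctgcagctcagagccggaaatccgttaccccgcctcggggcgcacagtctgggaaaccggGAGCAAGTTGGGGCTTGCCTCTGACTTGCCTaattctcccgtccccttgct
Cdkn1a (chr17:29090729-29091028, plus strand): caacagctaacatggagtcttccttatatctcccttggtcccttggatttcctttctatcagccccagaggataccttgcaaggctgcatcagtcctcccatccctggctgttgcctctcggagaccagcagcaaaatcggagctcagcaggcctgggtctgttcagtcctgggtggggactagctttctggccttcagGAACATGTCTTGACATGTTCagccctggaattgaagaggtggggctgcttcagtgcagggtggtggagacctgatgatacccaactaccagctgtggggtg
The first match starts 201 bases before the gene start in Bax and 195 before in Ccng1. It starts 51 bases before the gene start in Cdkn1a and 1 base before in Gtse1, where 2 overlapping matches share letters.

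Responses were also set against those of tumours lacking Trp53 or Cdkn1a, each against its own untreated tumours, in 1 fit of all 6 groups (34 mice). Of the 79 p53 targets, 28 responded more in wild-type than in p53-null tumours (102 of 19893 genes did, 0.513%) and 0 responded less (45 more and 1 less at an unadjusted p under 0.05). The median log2 response of the list was 0.64 in wild-type, 0.034 in p53-null and 0.644 in p21-null tumours. For Cdkn1a the response was 0.37 in p53-null tumours, and wild-type minus p53-null was 2.29 ± 0.53 (SE; adjusted p = 0.0258, limma). The difference was 1.59 ± 0.15 for Bax, 2.81 ± 0.36 for Eda2r and 1.91 ± 0.26 for Zmat3. Mdm2 differed by 1.53 ± 0.59 and did not pass (adjusted p = 0.310, limma). Against p21-null tumours only Trp53cor1 of the 79 differed (1.71 ± 0.19, adjusted p = 4.94e-06, limma), where 0.0302% of all genes responded more in wild-type tumours and 4 of the 79 responded more and 4 less at an unadjusted p under 0.05. Wild-type libraries were made with a stranded total RNA kit and those of both null genotypes with another kit, so kit and genotype cannot be told apart in these differences. Since Cdkn1a itself responded by 2.24 in p21-null tumours, its RNA does not mark that allele here.

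**Figure D3:**
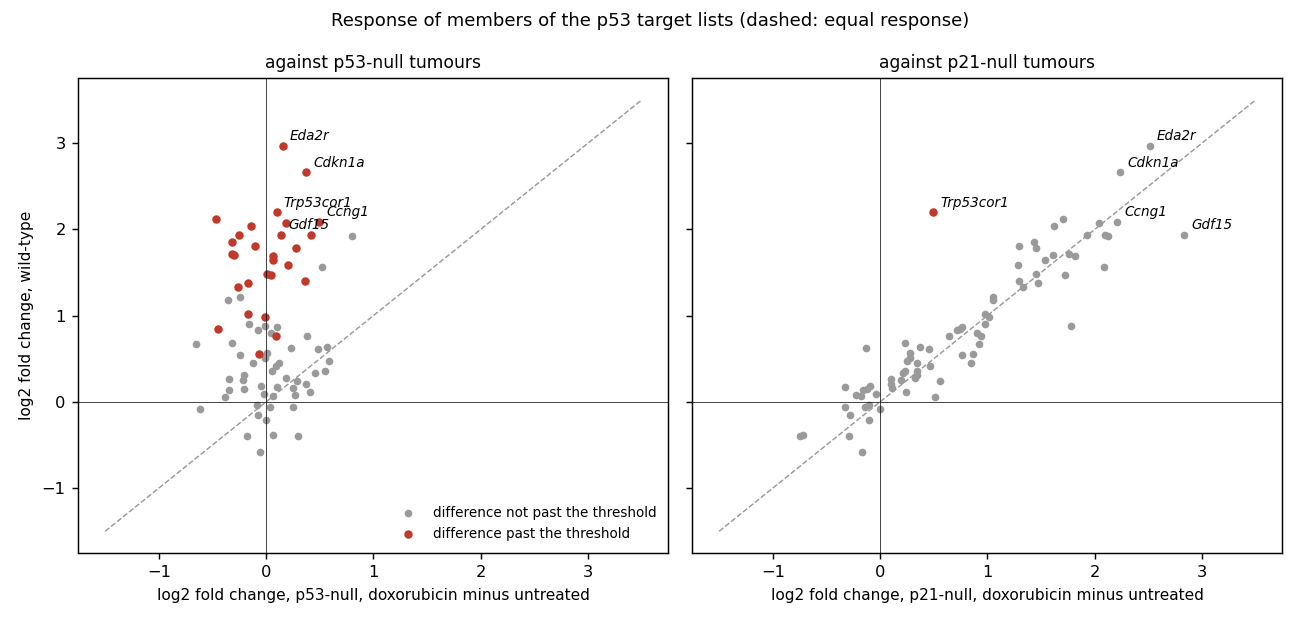
Log2 response to doxorubicin of the 79 p53 targets in wild-type tumours (y axis) against that in p53-null tumours (left panel, x axis) and p21-null tumours (right panel, x axis), 1 point a gene, with a line of equality. Points lie above the line at the left for targets such as Eda2r and Cdkn1a and nearer to it at the right. Kit and genotype cannot be told apart.

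The largest rises also took in genes outside those lists. Sncg, which encodes gamma-synuclein, had the largest rise of the named genes, at 22.3, 47.3, 38.7, 34.2 and 47.7 TPM in treated mice and 1.45 to 4.66 TPM (median 3.39) in untreated mice (3.30 ± 0.26, adjusted p = 5.27e-05, limma). Cox6b2, the testis form of a subunit of cytochrome c oxidase, was at 66.1, 37.9, 78.5, 62.5 and 60.0 TPM in treated mice, against 4.93 to 8.18 TPM in untreated mice (2.97 ± 0.17). Neither overlapped between the groups. Of the 13 nuclear cytochrome c oxidase genes tested, Cox6b2 was the 1 that rose (7.69%, against 3.75% of all genes). In a list this short that count lies near the share of all genes and says nothing of the family. Inka2, which encodes an inhibitor of the kinase PAK4, rose by 2.33 ± 0.15, the olfactory receptor gene Olfr1318 (chromosome 2, 112154198 to 112159157) by 2.36 ± 0.19 and the membrane protein gene Ano3 (chromosome 2, 110655201 to 110950923) by 2.16 ± 0.16. Muc15 lies within Ano3 on the opposite strand, and no source used here says whether counting used strand. Muc15 differed by -0.04 and did not pass. Olfr1318 was at 0.110 to 0.870 TPM in untreated mice. Olfr1318 and Ano3 passed the filter only through the treated mice. Sncg, Cox6b2, Inka2, Olfr1318 and Ano3 all responded more than in p53-null tumours, by 4.27, 4.27, 2.58, 2.37 and 2.15 on the log2 scale. In p53-null tumours Cox6b2 fell (-1.30, adjusted p = 0.0105, limma), and Sncg was at -0.97 and did not pass (adjusted p = 0.414, limma). The differences of these genes therefore exceed their wild-type rises. Krt15, a keratin gene of basal cells, rose by 2.31 ± 0.50, a call lost without untreated m996 or m998 or treated m1127, m1188 or m1475 (adjusted p = 0.0517 to 0.0679) and in the fit of all 6 groups (adjusted p = 0.0529).

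Interferon-stimulated genes, which cells switch on when type I interferon binds its receptor, were higher in treated tumours. Of 32 tested, 27 rose (3.75% of all genes did), all 32 were higher at an unadjusted p under 0.05, and 19 showed no overlap between the groups (3.78% of all genes). Their median log2 fold change was 1.53, against 0.02 over all genes. Ifit3, whose product binds viral RNA complexes, was at 110.3, 43.5, 34.3, 20.7 and 64.1 TPM in treated mice, against 5.50 to 16.5 TPM (median 9.53) in untreated mice. All treated mice exceeded all untreated ones, m1127 and m978 most, and m824 least (2.25 ± 0.38, adjusted p = 0.00777, limma). Oasl2, of the oligoadenylate synthetase family, rose by 2.14 ± 0.42. Lgals3bp, a secreted glycoprotein gene, rose by 1.72 ± 0.23, Trim30a by 1.29 ± 0.22 and Ifit2 by 1.14 ± 0.22. Ifit1 rose by 2.18 ± 0.48, a call lost without untreated m1198, m620, m713, m996 or m998 or treated m1188 or m978 (adjusted p = 0.0501 to 0.0607). Transcription factor genes of this response rose too, Stat2 by 1.25, Irf9 by 0.77 and the related Irf7 by 1.97. Near-identical copies within the Ifit and Oas families may share reads.

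The summed level of the 32 genes was 968.8 to 3365 TPM (median 1674) in treated mice and 478.9 to 899.3 TPM (median 642.9) in untreated mice. Calls in this list were sensitive to single mice. Their number was 9 without untreated m1198, 15 without m620, 13 without m713, 14 without m996 and 15 without m998. It was 14 without treated m1127, 12 without m1188 and 13 without m978, and 31 without m824. On TPM as deposited it was 16, and with no filter 17. The response did not pass the test of a difference between genotypes for any of the 32 genes against p53-null or p21-null tumours (1 lower in wild-type at an unadjusted p under 0.05 in each case). Their median response was 1.53 in wild-type, 1.79 in p53-null and 2.001 in p21-null tumours.

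The interferon-stimulated response element was searched in the same windows by its core on both strands, GAAA followed after any 2 bases by a second GAAA. It stood in the promoter of 12 of the 20 called interferon-stimulated genes with a window (60.0%), against 56 of the 508 genes that rose and have a window. The share was 3.6% of genes that fell and 3.86% of the 11825 tested genes with a window. Of single windows, 3.44% held the core. Promoters of 4 called genes follow, for a gene of RNA binding (Ifit3), a ubiquitin ligase (Trim30a), the transcription factor Stat2 and the virion tether Bst2, with the core in capitals, or its reverse complement where it lies on the other strand.
Ifit3 (chr19:34583279-34583578, plus strand): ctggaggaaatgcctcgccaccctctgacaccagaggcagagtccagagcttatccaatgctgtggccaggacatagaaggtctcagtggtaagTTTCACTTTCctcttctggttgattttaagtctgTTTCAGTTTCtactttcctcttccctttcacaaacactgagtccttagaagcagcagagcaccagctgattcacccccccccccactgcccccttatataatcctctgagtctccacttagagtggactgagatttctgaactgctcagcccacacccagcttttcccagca
Trim30a (chr7:104446076-104446375, minus strand): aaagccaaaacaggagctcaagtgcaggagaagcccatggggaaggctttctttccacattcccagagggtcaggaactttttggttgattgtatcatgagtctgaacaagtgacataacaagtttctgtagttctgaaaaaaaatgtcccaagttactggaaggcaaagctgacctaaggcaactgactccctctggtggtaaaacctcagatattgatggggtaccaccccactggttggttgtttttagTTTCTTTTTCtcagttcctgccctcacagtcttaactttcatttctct
Stat2 (chr10:128270248-128270547, plus strand): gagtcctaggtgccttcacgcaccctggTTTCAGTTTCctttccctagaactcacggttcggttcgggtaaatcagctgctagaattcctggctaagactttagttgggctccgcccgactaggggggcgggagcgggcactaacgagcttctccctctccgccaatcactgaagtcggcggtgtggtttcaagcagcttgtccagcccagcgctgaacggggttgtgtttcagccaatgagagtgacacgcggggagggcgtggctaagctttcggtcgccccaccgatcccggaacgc
Bst2 (chr8:71537423-71537722, minus strand): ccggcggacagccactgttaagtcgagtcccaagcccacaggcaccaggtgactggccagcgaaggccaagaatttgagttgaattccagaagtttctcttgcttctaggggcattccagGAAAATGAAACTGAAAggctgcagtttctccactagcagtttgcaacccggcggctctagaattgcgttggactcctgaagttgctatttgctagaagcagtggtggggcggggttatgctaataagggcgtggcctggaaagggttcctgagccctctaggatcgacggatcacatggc
The first match starts 156 bases before the gene start in Ifit3, 222 before in Stat2 and 130 before in Bst2, and 2 bases after it in Trim30a. Ifit3 and Bst2 hold 2 matches each.

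Interferon genes themselves were scarcely detected: Ifnb1, Ifng and all interferon alpha and lambda genes of the list fell below the filter on low values. Of all genes tested 3.75% rose, the share to set beside each count of rises in this paragraph. Of the 12 ligand, receptor and kinase genes tested, 3 rose, among them the shared receptor chain Il10rb (0.52 ± 0.10) and the receptor subunit Ifnar2 (0.45 ± 0.10). The call of Ifnar2 was lost without untreated m1198, m620 or m713 or treated m1127, m1188, m1475 or m824 (adjusted p = 0.0501 to 0.0687) and in the fit of all 6 groups (adjusted p = 0.0537). The count of 3 was 1 in that fit, without untreated m1198 or m713, without treated m1127 or m824 or without tumour m1475la, and 0 on TPM as deposited. Among 16 nucleic acid sensors and adaptors, 4 rose, led by Ifi204 (1.155 ± 0.18), of a DNA-binding family, and the count was 1 on TPM as deposited and without untreated m1198, m713 or m996 or treated m1127. It was 2 without treated m1188, m1475 or m978 or tumour m1475la. Cgas, the cytosolic DNA sensor, and Tmem173, which encodes STING, differed by -0.49 and 0.17 and did not pass. In class I antigen presentation 2 of 15 genes rose, the peptide transporter gene Tap1 (1.17 ± 0.22) and Tapbp (0.76 ± 0.18), and 10 had an unadjusted p under 0.05. The count of 2 was 6 in the fit of all 6 groups, 10 without untreated m1178 and 5 without treated m824. It was 1 without untreated m1198, m713 or m996 or treated m1127, m1475 or m978, where Tapbp was lost (adjusted p = 0.0592 to 0.0873). Of class II genes, 1 of 9 rose, the protease gene Ctss (0.93 ± 0.18), which did not pass in the fit of all 6 groups (adjusted p = 0.0808, limma). Among 8 immune checkpoint genes tested 2 rose. That count was 1 without untreated m1178, m1198, m620, m713 or m996, treated m1127, m1188 or m1475, or tumour m1475la. It was also 1 on TPM as deposited, with a pseudocount of 0.1 or with a filter at 10. With 12 separate tumours or without treated m978 it was 3. Lgals9, the galectin ligand of an inhibitory T cell receptor, rose by 1.14 ± 0.18.

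Macrophage markers rose in 12 of 17 cases, against 3.75% of all genes, and all 17 were higher in treated mice, with a median log2 fold change of 0.92 (0.02 over all genes). Cd68, a lysosomal glycoprotein of macrophages, was at 118, 107, 139, 137 and 88.6 TPM in treated mice, against 38.4 to 57.0 TPM (median 43.7) in untreated mice, without overlap (1.37 ± 0.14, adjusted p = 1.77e-04, limma). Ms4a7 rose by 1.30 ± 0.16 and Adgre1, which encodes the marker F4/80, by 1.002. The summed level of the list was 5092 to 10290 TPM (median 8009) in treated mice and 3422 to 4409 TPM (median 3636) in untreated mice. In whole tumour tissue, more cells of a type and more RNA per cell cannot be told apart, here as for the lists below. Csf1r, Cd14, Cd163, Itgam and Mrc1 did not pass, with log2 differences between 0.38 and 0.50.

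Genes of complement and of engulfment, which macrophages use to clear dying cells, moved the same way, and some of them are also macrophage markers. Of 16 complement genes, 12 rose (3.75% of all genes did), among them the C1q subunit genes C1qa (1.19 ± 0.18), C1qb (1.04 ± 0.15) and C1qc (1.01 ± 0.16), and C3ar1 (0.97 ± 0.11), the receptor of the C3a fragment. Of 23 engulfment genes, 15 rose, against the same share of all genes. Gas6, the bridging ligand between phosphatidylserine on dying cells and the TAM receptors, was at 654, 627, 637, 653 and 485 TPM in treated mice, against 102 to 226 TPM (median 189.8) in untreated mice (1.88 ± 0.22, adjusted p = 6.51e-04, limma). No treated mouse overlapped the untreated ones, and m978 was the lowest of the treated. Of the TAM receptors, Axl rose by 0.64 and Mertk by 0.59, while Tyro3 did not pass (0.32). The lipid exporter gene Abca1 rose by 1.22 ± 0.15, the lipid-sensing receptor gene Trem2 by 1.23 ± 0.17 and the Fc receptor gene Fcgr4 by 1.10 ± 0.16. In the fit of all 6 groups the engulfment count was 9.

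All 30 lysosome genes tested were higher in treated tumours and 16 rose (3.75% of all genes did), among them the proteases Lgmn (0.98 ± 0.12), Ctsb (0.85 ± 0.11) and Tpp1 (0.54 ± 0.07) and the membrane protein gene Laptm5 (1.47 ± 0.21). The count was 8 on TPM as deposited and without untreated m1198 or treated m1127, and 10 without untreated m713 or m996 or treated m1475. Of 21 chemokine genes 9 rose, against 3.75% of all genes, including Cxcl1 (1.151 ± 0.20), a neutrophil attractant, and Ccl22 (0.85 ± 0.17), a ligand of the receptor CCR4. The monocyte attractants Ccl2 (1.196 ± 0.25) and Ccl12 (1.11 ± 0.24) rose as well, but their calls were lost without untreated m1198 or treated m1127, and that of Ccl12 also without m1475 (adjusted p = 0.0508 to 0.0593). The chemokine count was 1 without treated m1127, 2 without untreated m1198 or treated m1475, 4 without untreated m996 or treated m978 and 5 without untreated m620 or m713 or tumour m1475la. It was 3 on TPM as deposited, and 4 with no filter or in the fit of all 6 groups, where Cxcl1, Ccl2 and Ccl12 did not pass (adjusted p = 0.0532, 0.0627 and 0.0722, limma). Of 31 senescence and secretory genes, 7 rose and 1, Areg, fell (3.75% and 1.16% of all genes). Csf1, the macrophage growth factor, rose by 0.92 ± 0.14, the protease inhibitor gene Serpine2 by 1.12 ± 0.20 and the gelatinase gene Mmp2 by 1.25 ± 0.23. The count of rises was 4 without untreated m1198, treated m1127 or tumour m1475la, and 3 in the fit of all 6 groups, where Mmp2 did not pass (adjusted p = 0.0786, limma).

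**Figure D4:**
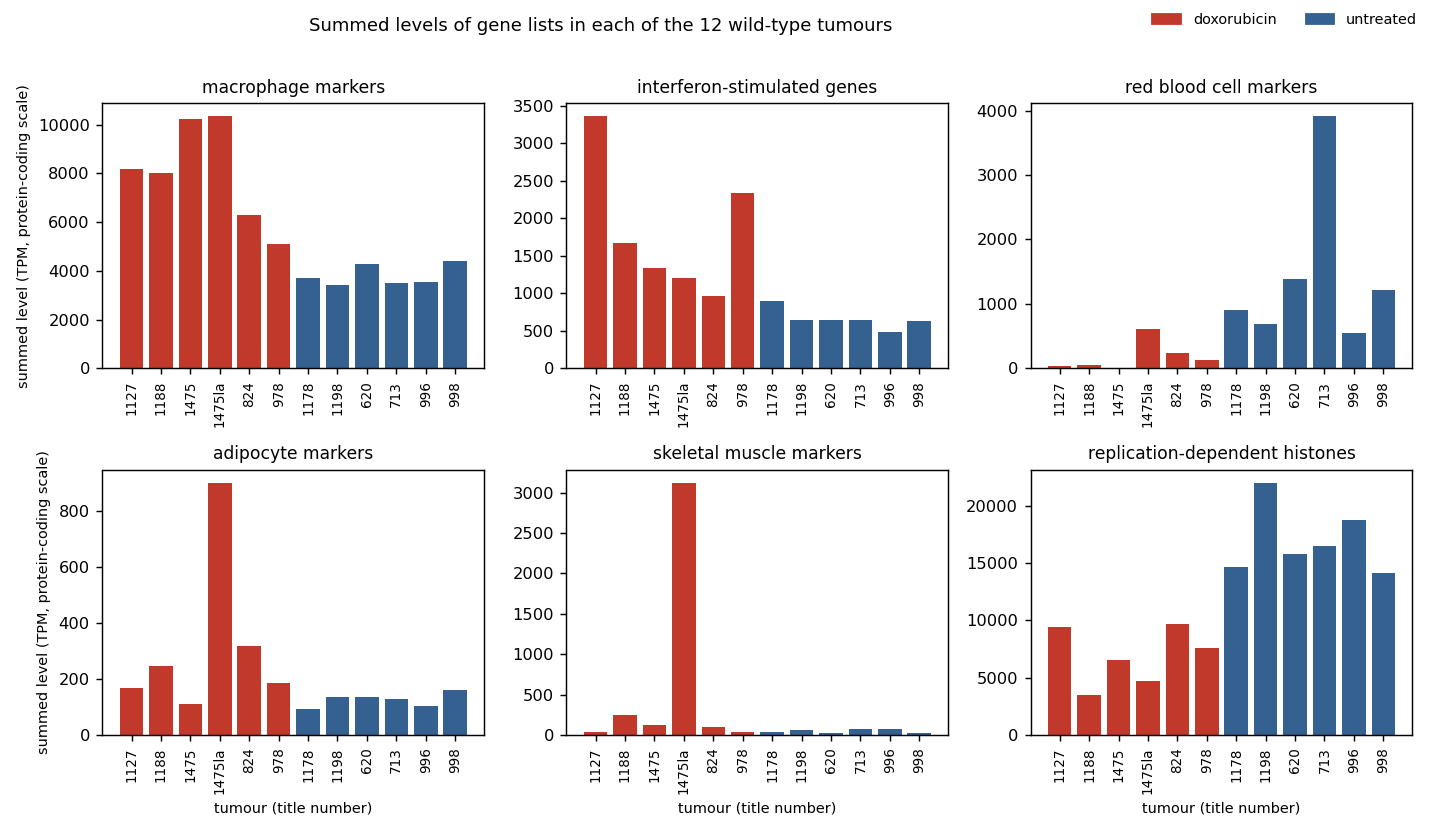
Summed level of 6 gene lists in each of the 12 tumours (y axes, TPM on the protein-coding scale), with bars of treated tumours left of untreated ones. Macrophage and interferon-stimulated sums are higher and histone sums lower in treated tumours, and tumour m1475la holds the highest adipocyte (899.5 TPM) and muscle (3124 TPM) sums.

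Other immune cells gave few or no calls, where 4.92% of all genes changed. With so few genes a list, 0 calls lies near that share and does not show absence of change. Among markers of T cells (8 tested), NK cells (8) and B cells (2) 0 passed (at an unadjusted p under 0.05, 1, 1 and 0), and their summed levels were 24.23 to 38.46, 15.94 to 37.34 and 4.353 to 20.31 TPM in treated mice, against 17.94 to 44.14, 10.57 to 22.27 and 5.397 to 29.77 TPM in untreated mice. All 6 neutrophil genes tested were higher, 3 at an unadjusted p under 0.05, with a median log2 fold change of 1.095. Of these only Csf3r was called (0.98 ± 0.20), a call lost without treated m1127 or m1475 (adjusted p = 0.0522 and 0.0517). Fibroblast, endothelial, pericyte, mast cell, skin and lymph node lists held 0 calls (1 to 3 genes a list at an unadjusted p under 0.05, except skin and lymph node with 0).

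Replication-dependent histone genes, which cells transcribe in S phase and whose mRNA ends in a stem-loop without a poly(A) tail, were lower in treated tumours. Of 51 tested, all were lower, 37 fell (1.16% of all genes did) and 40 showed no overlap between the groups (1.66% of all genes). Hist1h2ae, an H2A gene, was at 15.1, 3.11, 9.36, 16.6 and 8.39 TPM in treated mice, against 47.8 to 81.3 TPM (median 60.8) in untreated mice (-2.57 ± 0.32, adjusted p = 0.00110, limma). The H4 gene Hist1h4c was at 549, 284, 376, 416 and 420.3 TPM in treated mice, against 689 to 1000.3 TPM (median 814) in untreated mice. Treated m1188 was lowest for both genes and neither overlapped between the groups. Others fell with log2 fold changes of -2.25 for Hist1h2an, -2.16 for Hist1h2ab, -2.20 for Hist1h2ad, -1.28 for Hist2h2ab and -0.89 for Hist4h4. Hist1h2ai (-3.54 ± 0.86) and Hist1h2ah (-2.65 ± 0.54) had larger falls, but their calls were lost without 1 of several mice. For Hist1h2ah these were untreated m1198 or m713 or treated m1188 or m1475 (adjusted p = 0.0503 to 0.0555), and for Hist1h2ai every mouse but treated m824 (adjusted p = 0.0521 to 0.1001). The list's sum was 3465 to 9669 TPM (median 7616) in treated mice and 14110 to 22010 TPM (median 16170) in untreated mice. The count was 24 without untreated m1198 or treated m1475. Copies of these genes are near identical and may share reads. Of 10 replication-independent histone genes, H2afz fell by 0.88 on the log2 scale and H2afj rose by 0.64 ± 0.09.

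Genes of DNA replication and mitosis were lower too, but none of the listed ones passed in the main analysis. All 32 genes of G1/S and replication were lower with a median of -0.62, 0 were called and 21 had an unadjusted p under 0.05. The clamp loader subunit gene Rfc4 came nearest (-0.62 ± 0.16, adjusted p = 0.0520, limma). Of this list 8 genes fell in the fit of all 6 groups, 4 with median-of-ratios scaling, 3 with tumour m1475la alone for m1475 and 2 with a filter at 10 or with 12 separate tumours. Without treated m824, 4 passed, and 2 did without m1188. Rfc4 was among the calls in 5 of the 22 alternatives, with an adjusted p of 0.0537 in the fit of all 6 groups. All 30 genes of G2 and mitosis were lower with a median of -0.70, 0 were called and 12 had an unadjusted p under 0.05. Mki67, the proliferation marker Ki-67, was at 91.9, 19.3, 72.6, 145 and 95.0 TPM in treated mice, against 123 to 222 TPM (median 178) in untreated mice. The groups overlapped, and treated m1188 was lowest, as it was for the summed level of the list at 312.6 TPM (-1.25 ± 0.42, adjusted p = 0.114, limma). In the fit of all 6 groups Mki67 fell (adjusted p = 0.031, limma), 1 gene of the list in all. Top2a, the drug's target, differed by -0.98 and did not pass. In p53-null and p21-null tumours the median histone response was -0.10 and -0.16, against -1.55 in wild-type tumours over the 53 histone genes tested in that fit. Of these, 17 fell more in wild-type than in p53-null tumours (0.236% of all genes did) and 10 more than in p21-null tumours (0.101%). The histone sum was 7616 and 16170 TPM (medians) in treated and untreated wild-type tumours, 367.1 and 366.7 TPM in p53-null tumours and 305.9 and 255.2 TPM in p21-null tumours, so kit and genotype cannot be told apart here. With 1 TPM added, falls at the low levels of the null tumours are understated. The counts of larger falls therefore cannot show that histone genes fell less in those tumours.

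**Figure D5:**
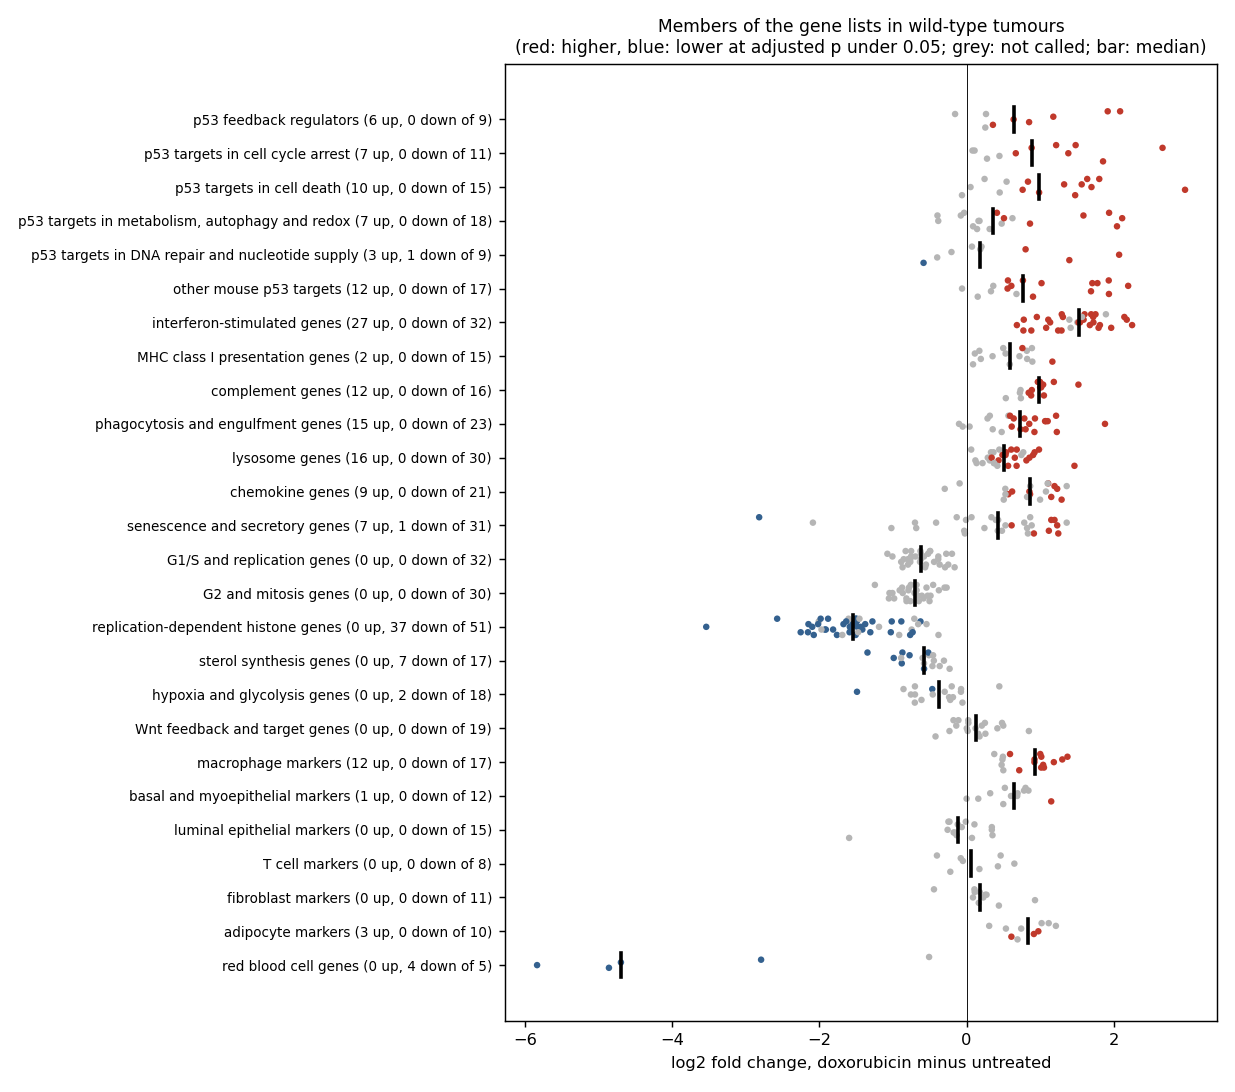
Log2 fold change of every tested member of the main lists (x axis, treated minus untreated wild-type tumours), 1 row of points a list, with a line at the list median and red or blue for genes that rose or fell. The median is 1.53 for interferon-stimulated genes, and -1.55 for histone genes, where no point lies above 0.

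The globin genes Hbb-bs, Hbb-bt and Hba-a2 had the largest falls among the named genes, and 4 of 5 red blood cell genes tested fell (1.16% of all genes did). Hbb-bs, the adult beta-globin gene, was at 1.37, 14.8, 18.3, 38.1 and 0.839 TPM in treated mice, against 223 to 1987 TPM (median 434) in untreated mice, and had a log2 fold change of -5.84 ± 0.86 (adjusted p = 0.00392, limma). No treated mouse reached the untreated range. Within m1475, the unsuffixed tumour was at 0.224 TPM and tumour m1475la at 303 TPM, which lies inside the untreated range. Log2 fold changes were -4.86 ± 0.61 for Hbb-bt and -4.70 ± 0.60 for Hba-a2. Hba-a1 fell by 2.79 on the log2 scale, a call lost without any 1 of the untreated mice or treated m1127, m1188 or m1475 (adjusted p = 0.0613 to 0.112). With tumour m1475la left out the log2 fold change of Hbb-bs was -6.63 (adjusted p = 0.00316, limma). Paralogous globin genes may share reads, and the blood held in each piece of tissue was not measured.

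Genes of metallothioneins and iron handling, taken as 1 list, rose in 4 of 12 cases and fell in 1 (3.75% and 1.16% of all genes). With 12 separate tumours 2 rose and 0 fell. The ferroportin gene Slc40a1, which exports iron, rose by 1.03 ± 0.12, the phagosomal metal transporter gene Slc11a1 by 1.31 ± 0.19 and the ferritin light chain gene Ftl1 by 0.73 ± 0.11. Tfrc, the transferrin receptor gene, fell by 0.73 on the log2 scale, a call lost without untreated m1178, m1198, m713 or m996 or treated m1127, m1188, m1475 or m978. Slc40a1 stood at 148 TPM in tumour m1475la and 33.8 TPM in the unsuffixed tumour, and Ftl1 at 5400.1 and 1584 TPM. With tumour m1475la left out, Slc40a1 still rose by 0.82 (adjusted p = 0.0356) and Ftl1 by 0.55 (adjusted p = 0.0238, limma). Of 10 adipocyte genes 3 rose (3.75% of all genes did), and 0 rose with tumour m1475la left out or with 12 separate tumours. The count was 1 on TPM as deposited, with no filter and without untreated m1178, m1198, m620, m713 or m996 or treated m1475 or m824.

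Sterol synthesis genes were lower in treated tumours in all 17 cases tested, and 7 fell (1.16% of all genes did), with a list median of -0.58. Idi1, an isomerase of the isoprenoid pathway, was at 11.3, 9.58, 15.3, 14.6 and 16.8 TPM in treated mice, against 28.1 to 51.6 TPM (median 33.1) in untreated mice, without overlap (-1.35 ± 0.19, adjusted p = 0.00215, limma). The demethylase gene Cyp51 fell by 0.87 on the log2 scale. Log2 fold changes were -0.88 for Fdps, -0.58 for Hmgcs1 and -0.77 for Insig1, which retains the sterol sensor in the endoplasmic reticulum. The count was 4 on TPM as deposited and without untreated m1198 or m713 or treated m1127 or m1188.

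Few markers of epithelial identity passed the test, where 4.92% of all genes changed. In lists of this length counts of 0 or 1 lie near that share, so they do not show that identity was unchanged. Of 15 luminal markers 0 were called (1 had an unadjusted p under 0.05), and 0 of 19 Wnt feedback and target genes were called (3 unadjusted), with the feedback gene Axin2 at 0.03. All 12 basal markers were higher, 7 at an unadjusted p under 0.05, and 1 rose. Krt5, the basal keratin, was at 310.3, 347, 459.6, 372 and 319 TPM in treated mice, against 133 to 199 TPM (median 166) in untreated mice (1.151 ± 0.13, adjusted p = 5.52e-04, limma), without overlap. It did not pass in the fit of all 6 groups (adjusted p = 0.097). Trp63, the basal lineage factor, differed by 0.00. Areg, the amphiregulin gene that relays hormone signals, fell by 2.82 on the log2 scale, with 12.6, 7.90, 5.79, 4.40 and 26.8 TPM in treated mice and 17.5 to 244 TPM in untreated mice. That call was lost without any 1 of 9 mice, that is all but untreated m620 and treated m978 (adjusted p = 0.0534 to 0.0965). Pgr, the progesterone receptor gene, averaged 11.4 ± 1.77 and 46.7 ± 40.8 TPM in treated and untreated mice (SD) and did not pass (adjusted p = 0.0626, limma). It fell in 4 of the 22 alternatives, among them the fit of all 6 groups (adjusted p = 0.0137, limma).

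Among genes of drug efflux transporters and topoisomerases, 3 of 12 rose (3.75% of all genes did), and 1 on TPM as deposited or with a filter at 10. Of the 12, 6 were lower (2 at an unadjusted p under 0.05), and the list median was 0.054. Abcb1b, 1 of a pair of mouse P-glycoprotein genes whose product pumps doxorubicin out of cells, was at 12.1, 7.51, 18.1, 10.8 and 10.2 TPM in treated mice, against 3.58 to 5.57 TPM (median 4.49) in untreated mice, and rose by 1.155 ± 0.19 (adjusted p = 0.00587, limma). All treated mice lay above all untreated ones. Abcb1a, the other gene of that pair, rose by 0.71, a call lost in 12 of the 20 alternatives in which it was tested. Abcc3, a related exporter gene, rose by 1.17 ± 0.21. Of 20 antioxidant and doxorubicin-reducing enzyme genes 3 rose (3.75% of all genes did) and 7 were lower. Nfe2l2, which encodes the antioxidant factor NRF2, rose by 0.61 ± 0.10. The calls of Hmox1 and Gstm1 were lost in 13 and 9 of the 22 alternatives. Of 9 genes of lytic cell death 2 rose (3.75% of all genes did) and 7 did not pass. Gsdmd, the pore-forming gasdermin D, rose by 0.71 ± 0.12 and Ninj1, which ruptures the plasma membrane, by 0.63 ± 0.13. The call of Ninj1 was lost on TPM as deposited (adjusted p = 0.0583, limma). Of 17 stress-response genes of the integrated stress and unfolded protein pathways Sesn2 was the 1 that rose (3.75% of all genes did). Of 17 immediate early and heat shock genes 0 passed (2 lower at an unadjusted p under 0.05), where 4.92% of all genes changed. In lists of this length counts of 0 or 1 lie near those shares and do not show that the pathways were unchanged.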

How the data were processed

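Total RNA came from frozen, pulverised tumour (Trizol). Wild-type libraries were prepared, per the labels' protocols, with a TruSeq Stranded Total RNA kit and null genotypes with the TruSeq RNA Library Preparation Kit v2. The authors deposited TPM per gene for each tumour, to 2 decimals, made with RSEM (version not given) on mm10 per the submitters' processing notes. Gene models were of Ensembl release 79 per the file headers and names. No source used here gives the aligner or trimming. Symbols and coordinates came from GENCODE M21 (42462 of 43346 identifiers matched).

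Each tumour was rescaled so that its 21461 nuclear protein-coding genes summed to 1000000. Values were analysed as log2(value + 1), so fold changes of low genes are understated. Tumours with the same number were averaged. The wild-type groups were fitted with R 4.3.3, limma 3.58.1 and statmod 1.5.0 (trend, robust moderation, 9 residual degrees of freedom) over genes of at least 1 in at least 5 mice, and p-values were adjusted by Benjamini-Hochberg over every gene tested (threshold 0.05). Differences between genotypes came from 1 fit of all 6 groups (19893 genes, 28 residual degrees of freedom). The fit was tested on simulated data.

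The members and the 56 lists (914 of 921 memberships matched) were chosen with earlier results of these data known. A few list members are counted but not reported here by name. Named genes are Cdkn1a, Trp53, Wnt1, the 12 largest rises and falls past the threshold with a mean of at least 5 in 1 group (predicted genes, pseudogenes and receptor segments left out), and per list up to 4 called members of smallest adjusted p, or the 1 nearest. Other names were chosen after their values were seen, and their calls were not followed gene by gene through the alternatives. Alternatives were the TPM as deposited, median-of-ratios scaling, pseudocounts of 0.1 and 5, no filter, a filter at 10, 12 separate tumours, 1 tumour for m1475, all 6 groups, plain empirical Bayes moderation and each mouse left out.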

Additional observations from a re-analysis of the deposited data

Results flagged for a closer look

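In 14 of 268 groups of named genes the highest or lowest mouse stood apart from the rest of its group by Dixon's criterion, which chance alone meets in about 1 group in 20. Among treated mice, m1188 stood apart at Lbhd2 (0.259 TPM) and Tlr7 (14.8), m978 at Gas6 (485), Cd79b (1.03) and Mdm4 (250), m1475 at Ftl1 (2925) and m1127 at Itgax (39.9). Among untreated mice, m1198 stood apart at Hist1h2ad (59.2), Eno1 (924) and Prf1 (1.79), m998 at C1qb (232) and Fdps (98.99) and m1178 at H2afj (47.8) and Kcnj8 (6.95).

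The response to doxorubicin differed between wild-type and p53-null tumours at 30 named genes by the test of the difference itself (limma, adjusted over all genes), with kit and genotype inseparable. Wild-type minus p53-null log2 responses were 2.29 for Cdkn1a, 4.27 for Sncg, 2.81 for Eda2r, 4.27 for Cox6b2, 2.37 for Olfr1318, 2.58 for Inka2, 2.10 for Trp53cor1 and 2.15 for Ano3. In cell cycle and death genes they were 2.17 for Psrc1, 1.55 for Gtse1, 1.48 for Btg2, 1.59 for Bax, 1.91 for Zmat3, 1.57 for Aen, 0.996 for Ei24 and 1.59 for Ccng1. In metabolic, repair and other genes they were 2.58 for Cpt1c, 2.18 for Ephx1, 1.800 for Gdf15, 1.39 for Sesn2, 1.97 for Serpine2, 1.51 for Dcxr, 1.496 for Slc19a2, 2.19 for Ptp4a3, 1.89 for Mgmt and 1.03 for Polk. Histone genes had negative differences of -2.35 for Hist1h2an, -1.97 for Hist1h2ab, -1.27 for Hist2h2ab and -0.83 for Hist4h4. Wild-type minus p21-null responses that passed were 1.34 for Olfr1318, 1.71 for Trp53cor1, -2.79 for Hist1h2ah, -2.04 for Hist1h2ae, -2.28 for Hist1h2an, -1.24 for Hist2h2ab and -0.89 for Hist4h4.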

How the results depend on the processing

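Of 114 named calls, 75 passed under every alternative in which their gene was tested, and 0 reversed. The other 39 were lost in at least 1 of the 22 alternatives, 27 of them when 1 mouse was left out. Olfr1318, Trp53cor1, Ano3 and Gdf15 were tested in only 15 alternatives and Ccl22 in 14. They passed the filter only through the 5 treated mice, and dropped out of the test when any treated mouse was left out. On TPM as deposited 102 of the 114 were tested, and 103 with a filter at 10. On TPM as deposited, where noncoding RNA lowers protein-coding values and fewer genes pass the filter, 258 genes rose and 84 fell, and responses differed from p53-null tumours at 60 genes (main 149) and from p21-null tumours at 65 (main 26). With median-of-ratios scaling 675 rose and 382 fell, and in the fit of all 6 groups 649 rose and 338 fell. Falls numbered 113 with no filter and 133 without tumour m1475la (511 rises). The p21-null difference count was 90 with a pseudocount of 5, an alternative chosen after seeing the data. The causes were not tested. Leaving out 1 mouse gave 373 to 653 rises and 71 to 245 falls. Cd79b, a B cell gene that did not pass, had a log2 difference of 0.055 without untreated m620, against -0.17 in the main analysis and -0.32 at lowest when 1 mouse was left out. No paired analysis was possible because the groups share no replicate numbers. Depth is unknown, so nothing can be said of counting error. TPM of genes near 1 are the least precise.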

Other observations

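Genes outside the lists, chosen after their values were seen, also changed in wild-type tumours. The receptor gene Notch1 rose by 1.42 ± 0.12 on the log2 scale (SE), the chaperone gene Clu by 1.22 ± 0.22 and the adhesion gene Mcam by 1.61 ± 0.26. Interferon-inducible GTPase genes rose as well, by 1.42 ± 0.31 for Igtp, 1.39 ± 0.23 for Irgm2 and 1.19 ± 0.30 for Gbp2, as did the antiviral membrane gene Ifitm3 (1.05 ± 0.11) and Rnf213 (1.56 ± 0.28). Siglec1, a sialic acid receptor of macrophages, rose by 1.32 ± 0.14, and Il18bp, the decoy of interleukin 18, by 1.42 ± 0.21. The kinase gene Pdk4, which restrains pyruvate oxidation, rose by 1.72 ± 0.35 and the arginine synthesis gene Ass1 by 1.33 ± 0.16.

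Genes that fell included the heterochromatin protein genes Cbx1 (log2 fold change -0.34 ± 0.07), Cbx3 (-0.44 ± 0.11) and Cbx5 (-0.56 ± 0.12), and the chromatin protein gene Hmgb2 (-0.99 ± 0.25). Pclaf, which binds the replication clamp, had a log2 fold change of -1.31 ± 0.28 and the microtubule regulator gene Stmn1 of -0.83 ± 0.20. The imprinted gene Mest fell by 1.78 on the log2 scale, the monocyte chemokine receptor gene Ccr2 by 0.88 and Pthlh, the gene of parathyroid hormone-related protein, by 1.31.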
